A study of Mus musculus with 12 samples.

Results

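The genes described here encode the 3 large enzyme families that conjugate drugs, hormones and bilirubin in the liver. They were chosen by name alone: every peak of the deposited table whose gene name starts with Ugt1, Ugt2, Ugt3, Gsta, Gstk, Gstm, Gsto, Gstp, Gstt, Gstz, Mgst or Sult was taken. This gave 57 of 17503 listed peaks and 33 of 10277 genes, with 32 peaks in 14 UDP-glucuronosyltransferase (UGT) genes, 22 peaks in 16 glutathione S-transferase (GST) genes and 3 peaks in 3 sulfotransferase (SULT) genes. All 33 names matched a RefSeq symbol. RefSeq holds 67 protein-coding genes under the same rule, 21 of them UGT, 25 GST and 21 SULT genes. Genes without a listed peak, among them those of the Gstp and Sult2 groups, were not analysed here.

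The study measured N6-methyladenosine (m6A), a methyl mark on adenosines inside mRNA, in liver of C57BL/6 mice that were wild type or Mettl3-deficient. Each genotype had 3 libraries of RNA precipitated with an anti-m6A antibody and 3 of input mRNA. METTL3 is the subunit of the methyltransferase complex that carries the catalytic site. How Mettl3 was inactivated, in which cells, and the age of the mice were not stated in those sources that were used.

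UGTs sit in the membrane of the endoplasmic reticulum and move glucuronic acid from UDP-glucuronic acid onto small lipophilic molecules. GSTs, mostly in the cytosol, join such molecules to glutathione, and SULTs transfer sulfate from the donor PAPS. Hepatocytes carry high levels of enzymes from each of these families, though not of every member, and the conjugates leave in bile or urine. The m6A methyltransferase prefers an adenosine within short motifs such as GGAC, and m6A in mRNA is known to be dense around the stop codon and in the 3′ UTR.

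All fold changes and false discovery rates (FDR) below are the authors' own, 1 value per peak over both genotypes. A peak was called where its deposited FDR was 0.05 or below, that is a log10 FDR of -1.3 or lower. The table names no numerator. Because the design sets loss of the methyltransferase against wild type, a negative value likely means less m6A enrichment in Mettl3-deficient liver, and the text keeps to negative and positive. Values for single libraries were not used here, so the spread between mice is unknown and no new test could be run. The liver was taken as bulk tissue, in which fewer cells of a type and less RNA per cell cannot be told apart, and whether the comparison corrects for input RNA is not stated. The table gives no expression level, so the labelled tissue could not be checked by level. Of the 5 hepatocyte markers looked up, 4 had a listed peak, as had 1 of 4 cholangiocyte, 4 of 5 endothelial, 2 of 5 macrophage and 3 of 5 stellate cell markers. Their part in the results was not tested.

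Many of the UGT genes are recent copies of each other, and reads from 1 copy may be placed on another. The starts of the Ugt2 genes on chromosome 5 show how alike they are at the place where most of their 5′ peaks lie. Each line gives up to 30 bases of RefSeq sequence (GRCm38.p6, the build also called mm10) in transcript direction. The ATG in capitals is the one within the first bases of the transcript whose surroundings were most like those of Ugt2b38. Ugt2b35 lies on the plus strand and the others on the minus strand.
Ugt2b38 (chr5:87424156-87424185): ttttgattttcaggATGcctggaaagtgga
Ugt2b37 (chr5:87254755-87254784): ttttgattttcaggATGcctggaaagtgga
Ugt2b5 (chr5:87140291-87140320): ttttgattttcaagATGcctggaaagtgga
Ugt2b36 (chr5:87092509-87092538): cattgattttcagaATGctttggaagtgga
Ugt2b35 (chr5:87000878-87000907): ctttgacttccaggATGcctgtgaagtgga
Ugt2b34 (chr5:86906905-86906934): tgaagttaaccaagATGcctgtgaaaatga
Ugt2b1 (chr5:86926483-86926503): gcaagATGtctatgaaacagg
Ugt2a3 (chr5:87337148-87337177): tgaggaggcacaatATGgtctctgaaaaat
Ugt2b37 and Ugt2b38 were identical over all 30 bases, and Ugt2b5 differed from each of them at a single base, sharing 29. Ugt2b35 shared 25 of 30 with Ugt2b38, Ugt2b36 shared 24, Ugt2b34 shared 17 and Ugt2a3 shared 9. For Ugt2b37, Ugt2b38 and Ugt2b5 a value at the first bases may therefore not belong to a single copy. Only these bases were compared, whereas the peaks there are 297, 385 and 330 bp wide. Whether reads over the whole peaks can be told apart was not tested.

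The methylation motif GGAC can also be read in these windows. It was searched on the transcribed strand in the first 50 bases after each RefSeq start, where 18.9% of all 32851 windows in the table held it (17.4% held its reverse complement, and 33.3% either). Of 37 windows of member genes 9 held it, or 24.3%. In 4 windows the motif lay inside a listed peak of the same gene, and these are shown with the motif in capitals and their position on the same build.
Ugt2b38 (chr5:87424191-87424203, minus strand): GGACtgtgaagag
Gstk1 (chr6:42245935-42245947, plus strand): GGACtacgattgg
Gsta1 (chr9:78230680-78230701, plus strand): tctggagctGGACtgtgagctg
Gsto1 (chr19:47854992-47855013, plus strand): tgagttctaGGACagtgtacaa
The change at these 4 peaks went both ways in the authors' deposited table, with -2.17 for Ugt2b38, 0.72 for Gstk1, 1.67 for Gsta1 and 0.78 for Gsto1. Ugt2b5 has the same letters near its start, but outside its listed peak. These matches describe letters and do not show that a site is methylated.

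The families differed in sign. By the leading peak of each gene, the one with the smallest FDR, 12 of 14 UGT genes had a negative called change. Of the other UGT genes 1 had a positive one and 1 was not called. The leading peaks of Ugt1a6b, Ugt1a6a and Ugt1a8, each counted among the 12, fall within 1 interval once overlapping rows are merged. Of 16 GST genes 15 had a positive called change and 1 a negative one. Over all listed genes, 47.6% had a negative and 33.6% a positive called leading peak. The UGT share of 85.7% negative and the GST share of 93.8% positive each lay above that background. The background pools all features, whereas most GST leading peaks lay in the 5′ UTR, where 53.4% of all listed peaks were positive and called. The median of the leading peaks was -1.58 for UGT genes (quartiles -2.21 and -1.17) and 0.75 for GST genes (quartiles 0.64 and 0.90), against -0.52 over all genes. The ranges of both families overlapped, through Ugt2b35, at 0.79 in the authors' deposited table, and Gstz1, at -1.02 there. Beyond the leading peaks, other UGT peaks were positive too, up to 0.94. The difference between the families was not tested, since related genes share sequence and loci and are not replicates.

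Over peaks rather than genes the picture held for GST and was split for UGT. Of the 57 member peaks 52 were called, 19 negative and 33 positive. Over all listed peaks, 76.2% were called, 40.6% negative and 35.6% positive. Of 22 GST peaks 20 were positive and called (90.9%) and 1 negative. Of 32 UGT peaks 18 were negative and 12 positive, but 9 of the 12 positive rows describe 1 interval at the shared end of the Ugt1a genes. Counted once, that interval leaves 4 positive UGT peaks beside the 18 negative ones. Some negative rows overlap too, and with all overlapping rows counted once 15 UGT peaks were negative and 4 positive. The sizes differed as well, when peaks were counted that were called with a log2 fold change of at least 1 in size. Of all 32 UGT peaks, 15 were such negative peaks and 0 such positive ones. Of all 22 GST peaks, 1 was negative and 3 were positive by this rule. Over all 17503 listed peaks the same rule gave 5070 negative (29.0%) and 1366 positive (7.80%). The median of all listed peaks was itself above 0, at 0.34. Relative to it 18 GST peaks were positive and called and 2 negative, and the UGT counts were the same as before, 18 negative and 12 positive.

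**Figure D1:**
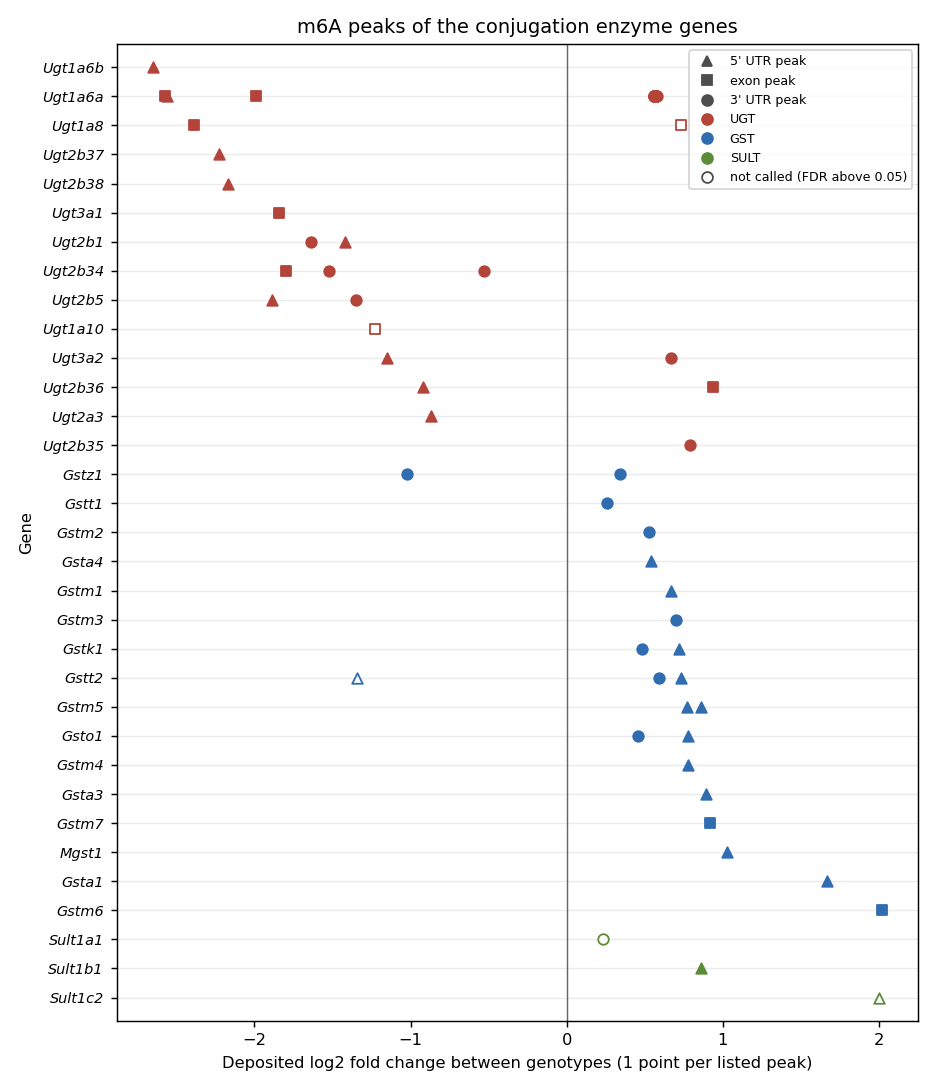
Deposited log2 fold change between genotypes (horizontal axis) of every listed peak, by gene (vertical axis, ordered by leading peak within family); shape gives the annotated feature, colour the family, and open symbols are peaks with an FDR above 0.05. UGT points lie mostly left of 0, down to -2.65 for Ugt1a6b, and GST points right of 0, up to 2.02 for Gstm6.

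The contrast was sharpest at the 5′ end. All 9 UGT peaks annotated to the 5′ UTR were negative and called, with a median of -1.89 (range -2.65 to -0.87). They include rows of 35843 bp (Ugt1a6a, overlapping the Ugt1a6b row) and 26132 bp (Ugt3a2), whose place on the RNA is not known, and the other 7 were negative with the same median. Among those 7 are the peaks of Ugt2b37, Ugt2b38 and Ugt2b5, whose near-identical first bases mean that their values may not be independent. Of 12 GST peaks of the 5′ UTR, 11 were positive and called and 1 was not called, with a median of 0.78. The GST peaks include wide rows as well, of 14027 bp (Gsta4), 9177 bp (Gsta3) and 4403 bp (Gsta1), and overlapping rows of Gstm5. Over all listed 5′ UTR peaks, 53.4% were positive and called and 23.0% negative, so the GST genes had the sign most common at that feature and the UGT genes the less common one. All 9 UGT peaks, and 10 of the GST peaks, had a deposited distance of 0 from a transcript start. In other exons UGT genes had 5 negative, 1 positive and 2 peaks not called, and GST genes 2 positive (background 38.6% negative and 23.9% positive). In the 3′ UTR, with the shared Ugt1a end counted once, UGT genes had 4 negative and 3 positive peaks and GST genes 1 negative and 7 positive (background 48.9% negative and 32.1% positive).

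**Figure D2:**
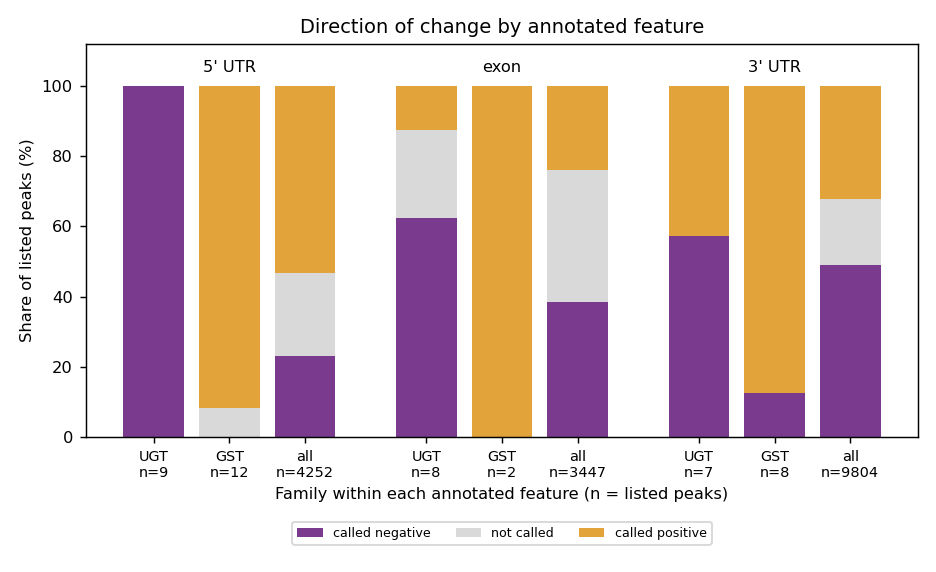
Share of listed peaks (vertical axis, %) that were called negative, not called or called positive, for UGT genes, GST genes and all genes within each annotated feature; n is the number of listed peaks, and the 9 rows of the shared Ugt1a end are counted once. All 9 UGT peaks of the 5′ UTR are negative, whereas 11 of 12 GST peaks there are positive.

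The Ugt1a genes are a special case of gene structure. They lie in 1 unit on chromosome 1 in which each gene has its own first exon, spliced to a set of downstream exons that all of them share. The first exon sets the substrate of the enzyme, and the shared exons encode the part that binds the sugar donor. RefSeq lists 9 such genes, from Ugt1a10, which starts at 88055411, to Ugt1a1, which starts at 88211959. A read in the shared exons therefore belongs to no single gene.

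The 16 rows named for Ugt1a genes fell into 5 distinct intervals. The 9 rows at the shared end were all named Ugt1a6a and annotated 3′ UTR. They lay between 88218817 and 88219004 and had 151 bases in common (chr1:88218835-88218985). In the authors' deposited table they stood at 0.56 to 0.58, with log10 FDR between -54.4 and -47.9. Their number equals that of the 9 RefSeq genes, all of which span the bases in common, and 7 different pairs of start and end occurred among them. They are counted as 1 interval wherever that is said.

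Upstream of that end, the called Ugt1a peaks were negative. The phenol-conjugating gene Ugt1a6b held a peak at its start (chr1:88103282-88106943), at -2.65 in the authors' deposited table (log10 FDR -28.5), a ratio of 0.159. A peak just downstream (chr1:88107003-88107598) carries the name Ugt1a8 but starts 3746 bp after the RefSeq start of Ugt1a6b, and the authors' deposited table gives it -2.39 (log10 FDR -177) and places it in exon 2 of a transcript with the gene ID of Ugt1a6b. The peak of Ugt1a6a (chr1:88138550-88139119) stood at -2.57 in the authors' deposited table, at the floor of the FDR scale (log10 FDR -434). Its start lies 3741 bp after that of Ugt1a6a, nearly the same distance as in the copy Ugt1a6b. A wide row named Ugt1a6a (chr1:88103262-88139104) runs over 35843 bp of genome from the start of Ugt1a6b into Ugt1a6a and overlaps those 3 peaks, so its -2.56 in the authors' deposited table was merged with them into 1 interval.

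The bilirubin-conjugating gene Ugt1a1 has no row under its own name, yet a peak lies in its first exon. The row at chr1:88212433-88212759 is named Ugt1a6a, but it starts 474 bp after the RefSeq start of Ugt1a1 and is annotated to exon 1 of 5 of another gene than Ugt1a6a. It stood at -1.99 (log10 FDR -434) by the authors' deposited table, a ratio of 0.252. The first exons of Ugt1a10 and Ugt1a7c gave no call: a peak 573 bp after the Ugt1a10 start stood at -1.23 (log10 FDR -0.24) by the authors' deposited table. The row 450 bp after the start of Ugt1a7c, which is named Ugt1a8, stood at 0.73 (log10 FDR -0.33) by the authors' deposited table. No listed peak lay near the starts of Ugt1a9, Ugt1a8, Ugt1a5 and Ugt1a2.

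**Figure D3:**
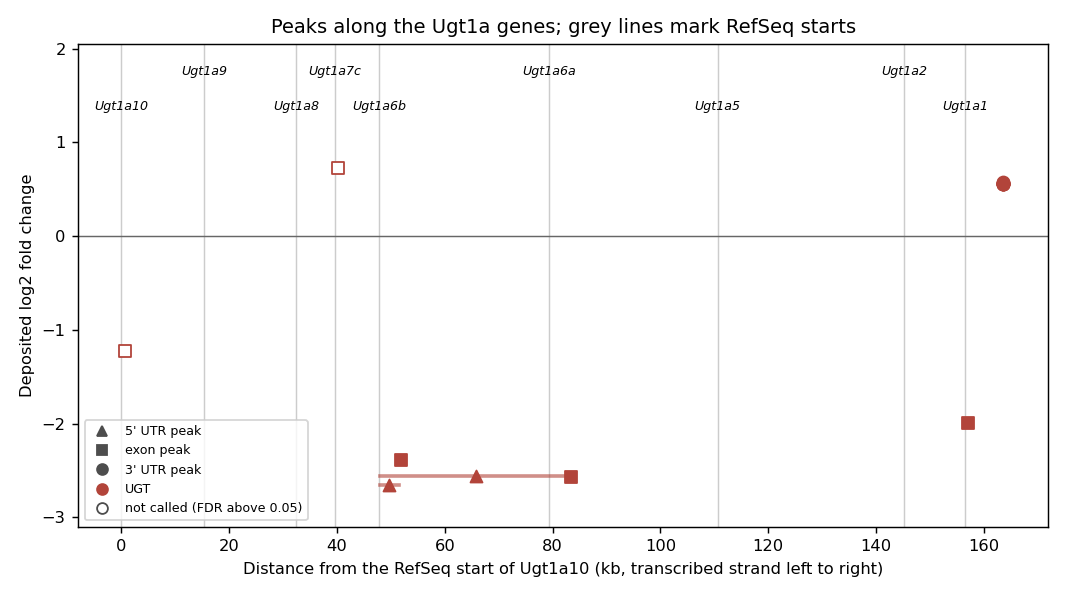
Deposited log2 fold change (vertical axis) of the 16 rows named for Ugt1a genes along the unit, as distance in kb from the RefSeq start of Ugt1a10 (horizontal axis); grey lines mark RefSeq starts, horizontal bars the width of each row, and open symbols rows that were not called. Called rows at the Ugt1a6b, Ugt1a6a and Ugt1a1 first parts lie between -2.65 and -1.99, and the 9 rows at the shared end lie on top of each other at 0.56 to 0.58.

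The Ugt2 genes conjugate steroids, bile acids and many drugs. Of 10 RefSeq genes in their cluster on chromosome 5, 8 had listed peaks, 13 in all. Of these peaks 11 had a negative called value (84.6%, beside 40.6% over all listed peaks), and the median of the 13 was -1.42. The strongest negative values were at the near-identical starts of Ugt2b37 and Ugt2b38. Ugt2b37 (chr5:87254508-87254804) stood at -2.23 (log10 FDR -15.6) by the authors' deposited table and Ugt2b38 (chr5:87423819-87424203) at -2.17 (log10 FDR -69.5), ratios of 0.213 and 0.222. Given the shared 30 bases shown above, these values may not be independent.

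Where a Ugt2b gene had peaks at both ends, both were negative. Ugt2b5 stood at -1.89 at its start (chr5:87139989-87140318, log10 FDR -140) and at -1.35 in the 3′ UTR (chr5:87124960-87125349, log10 FDR -280) by the authors' deposited table. Ugt2b1 had -1.42 at its start (chr5:86925932-86926530, log10 FDR -151) and -1.64 in the 3′ UTR (chr5:86917386-86917685, log10 FDR -213) by the authors' deposited table. Ugt2b34, the least alike of the 2b copies in its first bases apart from Ugt2b1, had 3 negative peaks: -1.80 in exon 1 of 6 (chr5:86906548-86906727), -1.52 in the 3′ UTR (chr5:86890815-86891084) and -0.53 at its very end in the authors' deposited table. How alike the copies are at these exon and 3′ UTR peaks was not measured.

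The other Ugt2 genes had smaller or positive changes. Ugt2a3 stood at -0.87 (log10 FDR -34.3) at its start in the authors' deposited table. Ugt2b36 had opposite signs within its first exon, with -0.92 at the start (627 bp, log10 FDR -46.1) and 0.94 in a narrow peak of 61 bp beyond it (log10 FDR -9.25) by the authors' deposited table. Ugt2b35 was the single UGT gene with a positive leading peak: its only listed peak, at the end of the gene, stood at 0.79 (log10 FDR -12.8) by the authors' deposited table. Next to the cluster lies Sult1b1, a sulfotransferase gene for thyroid hormone and phenols, with a positive called peak of 0.86 (log10 FDR -4.77) by the authors' deposited table.

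The 2 Ugt3 genes, whose enzymes use other UDP sugars than UDP-glucuronic acid, also had negative leading peaks. Ugt3a1 stood at -1.84 (chr15:9292012-9306326, log10 FDR -10.9) and Ugt3a2 at -1.15 (chr15:9335550-9361681, log10 FDR -73.0) by the authors' deposited table. Both rows span long stretches of genome (14315 and 26132 bp), introns included, so their place on the RNA is not known. Ugt3a2 also had a called peak near its end, at 0.67 (log10 FDR -3.80) by the authors' deposited table.

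In the mu class of GSTs all 7 genes of the cluster on chromosome 3 had a listed peak. All 8 of their peaks were positive and called, beside 35.6% over all listed peaks and 53.4% over all 5′ UTR peaks. The median of the 8 was 0.78. The largest was Gstm6, at 2.02 in exon 4 of 8 (chr3:107942316-107942553, log10 FDR -128) by the authors' deposited table, a ratio of 4.06. The other 6 genes stood between 0.53 and 0.92 in the authors' deposited table: Gstm2 at 0.53, Gstm1 at 0.67 with the FDR at its floor, Gstm3 at 0.70, Gstm5 at 0.77, Gstm4 at 0.78 and Gstm7 at 0.92. Gstm6 lay above all of them, and the 2 rows of Gstm5 (0.77 and 0.86) overlap. The mu genes are similar in sequence too, so their values may share reads.

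The alpha class, which handles products of lipid peroxidation, was positive in all 3 genes with a listed peak. All 3 peaks carry the 5′ UTR label, at which 53.4% of all listed peaks were positive and called. Gsta3 stood at 0.89 (log10 FDR -136), Gsta4 at 0.54 (log10 FDR -42.7) and Gsta1 at 1.67 (chr9:78230656-78235058, log10 FDR -2.77) by the authors' deposited table. Gsta1 had the larger change but by far the weakest evidence of the 3. The Gsta4 row spans 14027 bp, most of the length of the gene, so its 5′ UTR label does not fix its place. The rows of Gsta3 (9177 bp) and Gsta1 (4403 bp) are wide too.

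Of the remaining GST genes, those with peaks at both ends were positive at both. Gsto1, whose omega-class enzyme reduces dehydroascorbate, stood at 0.78 in its 5′ UTR and at 0.46 in its 3′ UTR by the authors' deposited table. The kappa-class gene Gstk1 stood at 0.72 and 0.48 at the same 2 features in the authors' deposited table. The theta-class gene Gstt2 stood at 0.73 and 0.59 there, with a further 5′ UTR row at -1.34 that was not called (log10 FDR -0.59) by the authors' deposited table. The called 5′ value was the higher one in all 3 genes. Medians over all listed peaks had the same order, 0.67 for 5′ UTR peaks at a transcript start and 0.54 for 3′ UTR peaks ending within 100 bp of the RefSeq end. Gstt1 had the smallest called change of any member, 0.26 (log10 FDR -33.5) by the authors' deposited table, and turns negative relative to the median of all peaks. The membrane-bound Mgst1 stood at 1.03 (chr6:138141536-138141743, log10 FDR -6.87) by the authors' deposited table.

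Gstz1 was the exception among the GST genes. Its enzyme, maleylacetoacetate isomerase, works in tyrosine breakdown rather than in drug conjugation. It had 2 called peaks of opposite sign in its 3′ UTR: -1.02 (chr12:87163825-87164005, log10 FDR -434) and, at the last bases of the gene, 0.34 (chr12:87164484-87164723, log10 FDR -42.3) by the authors' deposited table. The positive value equals the median of all listed peaks. The negative peak had the stronger evidence.

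The SULT genes gave little. Only Sult1b1 was called. Sult1a1, the main phenol sulfotransferase gene, stood at 0.23 (log10 FDR -1.08, p = 0.04) by the authors' deposited table, just short of the threshold. Its row extends past the RefSeq end of the gene. Sult1c2 stood at 2.0 in the authors' deposited table (log10 FDR -0.56) in a row that lies before its RefSeq start. With 3 listed peaks no direction can be read for this family.

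Apart from the shared Ugt1a end, the positive 3′ UTR peaks of the called members sat at the last bases of the gene. The choice of genes did not use this distance, but the comparison was added after its values were seen. A peak was counted as terminal when its 3′ edge lay within 100 bp of the RefSeq end. Of 11 terminal member peaks 9 were positive and called, namely those of Gstk1, Gstm2, Gstm3, Gsto1, Gstt1, Gstt2, Gstz1, Ugt2b35 and Ugt3a2, and 2 were negative, those of Ugt2b5 and Ugt2b34. The negative peaks of Gstz1, Ugt2b1 and the lower one of Ugt2b34 lay 718, 747 and 1045 bp before the end. The whole table had the same tendency. Terminal 3′ UTR peaks were negative and called in 32.8% and positive in 49.6%, against 60.5% and 20.9% for 3′ UTR peaks that ended earlier. In 576 genes with called peaks of both kinds, the terminal one was positive and the earlier one negative in 258, and the reverse in 21. In the others the signs were alike, positive at both in 116 and negative at both in 181. Gstz1 and Ugt2b34 are the members among them, and Ugt2b34 was negative at both. The end of the shared Ugt1a interval lies about 1000 bp before the RefSeq end of Ugt1a6a, but at the RefSeq end of Ugt1a6b and Ugt1a8 (88218998).

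**Figure D4:**
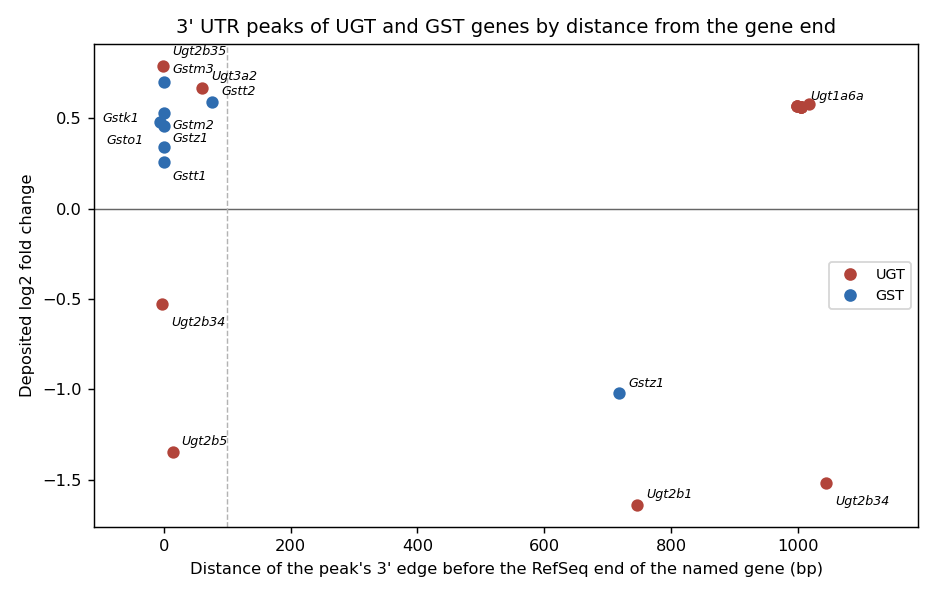
Deposited log2 fold change (vertical axis) of the called 3′ UTR peaks of UGT and GST genes against the distance of their 3′ edge before the RefSeq end of the named gene (horizontal axis, bp); the dashed line marks 100 bp. Terminal peaks are positive except those of Ugt2b34 (-0.53) and Ugt2b5 (-1.35), the earlier peaks of Gstz1, Ugt2b1 and Ugt2b34 are negative, and the shared Ugt1a end lies to the right of the line at 0.56 to 0.58.

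The genes that supply the donors went different ways. Of 9 genes of UDP-glucuronic acid supply and glucuronide hydrolysis 7 had a listed peak. Their leading peaks were negative in 3 and positive in 4, beside 47.6% and 33.6% over all genes. The transporter of UDP-glucuronic acid into the endoplasmic reticulum, Slc35d1, stood at -1.34, and the glucuronidase gene Gusb at -0.70, in the authors' deposited table. The synthesis genes Ugp2 (0.77), Ugdh (0.90) and Pgm1 (0.60) were positive and called by the authors' deposited table. Uxs1, whose enzyme uses up UDP-glucuronic acid, was negative (-0.73) in the authors' deposited table. Slc35d1 also had positive called peaks of 0.59 and 1.87, and Gusb one of 1.16, in the authors' deposited table. Of the 18 listed peaks of these genes 3 were called negative and 10 positive, beside 40.6% and 35.6% over all listed peaks.

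By leading peak, 12 listed genes of glutathione had 5 negative and 6 positive called changes and 1 that was not called, beside 47.6% negative and 33.6% positive over all genes. Over all their called peaks 5 were negative and 15 positive, beside 40.6% and 35.6% over all peaks. The catalytic subunit of the first step of synthesis, Gclc, stood at -1.86 in the authors' deposited table. The glutathione-degrading enzymes Chac2 and Ggt6 stood at -1.94 and -1.76 there, and Ggt6 also had a positive called peak of 0.49. The peroxidase gene Gpx1 (0.70), the cysteine-forming gene Cth (0.83) and Oplah (0.84) were positive in the authors' deposited table.

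In the sulfate list 10 of 12 listed genes were negative and 2 positive by leading peak, with a median of -1.69. Of its 18 listed peaks 12 were called negative and 5 positive, beside 40.6% and 35.6% over all listed peaks. The authors' deposited table gives -1.96 for Papss1, which makes PAPS, and -2.68 and -1.43 for the PAPS transporter genes Slc35b2 and Slc35b3. It gives -2.53 for the sulfite oxidase gene Suox. Papss1 (1.11) and Slc35b3 (1.82) also had a positive called peak in the 5′ UTR in the authors' deposited table. Arsa, a lysosomal sulfatase gene, stood at -2.63 and Tpst2, which sulfates tyrosines of proteins, at -2.61 in the authors' deposited table. Across these 3 donor lists the counts of negative leading peaks were 3 of 7, 5 of 12 and 10 of 12, beside 47.6% over all genes.

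By leading peak, other conjugating enzymes were negative in 7 and positive in 3 of 10 listed genes, beside 47.6% and 33.6% over all genes. Of their 16 listed peaks 7 were called negative and 7 positive, beside 40.6% and 35.6% over all listed peaks. The authors' deposited table gives -1.36 for Baat and -1.52 for Glyat, which join glycine or taurine to acids, -1.58 and -1.40 for the acyl-CoA synthetase genes Acsm1 and Acsm5, and -2.48 for the arylamine acetyltransferase gene Nat2. Baat (0.89), Glyat (0.90) and Acsm1 (0.95) also had a positive called peak in the 5′ UTR in the authors' deposited table. Gnmt, a glycine methyltransferase gene, was positive at 0.99 in the authors' deposited table.

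By leading peak, regulators of these enzymes were negative in 10 and positive in 3 of 13 listed genes, beside 47.6% and 33.6% over all genes. Of their 35 listed peaks 18 were called negative and 12 positive, beside 40.6% and 35.6% over all listed peaks. Nfe2l2, which drives many GST genes, stood at -1.5 and its inhibitor Keap1 at -1.41 in the authors' deposited table. Rxra stood at -1.82, Hnf4a at -2.66 and Ppara at -2.13 in the authors' deposited table. Hnf4a also had positive called peaks of 0.61 and 0.67, and Ppara one of 0.89, in the authors' deposited table. Nr1i3, the gene of the xenobiotic receptor CAR, named after its values were seen, was positive at 0.98 (log10 FDR -30.0) by the authors' deposited table. The efflux and uptake carriers looked up had 5 negative and 5 positive leading peaks and 3 not called, of 13. Of their 17 listed peaks 6 were called negative and 8 positive, beside 40.6% and 35.6% over all listed peaks. Abcc2, the canalicular exporter of glucuronides and glutathione conjugates, stood at -1.08 (with positive called peaks of 1.16 and 0.56) and Abcc3, its basolateral counterpart, at -0.45 in the authors' deposited table. Abcb4 was negative as well (-0.51, with a positive called peak of 0.50) in the authors' deposited table. Slco2b1 (1.37), Abcb11 (1.29) and Slco1b2 (0.76) were positive there.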

How the data were processed

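The libraries comprised 12 samples in 4 groups of 3 replicates (wild-type and Mettl3-deficient, precipitated and input). The submitters' processing notes name the aligner HISAT2 (version 2.1.0) and the mouse build mm10. How peaks were called, how replicates were treated and which test was used is not given in the sources used here. The authors deposited, per the file headers, a log2 fold change and a log10 FDR for each peak, here treated as a score because of a floor (-434, then -321), and a p-value rounded to 2 decimals. Other deposited columns give position, width on the genome including introns, and distance from the transcript start. Of 17692 rows 189 had no gene name and shifted cells and were left out, and none of them named a member. Depth is unknown, as no counts were used.

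Calls, counts and medians were computed with Python 3.11.15, and counting and interval merging were tested on simulated data. Leading peaks had the smallest FDR, ties going to the larger change. Intervals were merged at an overlap of 1 bp. Gene spans, strands (from deposited distances that matched a gene border within 100 bp where no start sequence was given) and sequences came from RefSeq, GRCm38.p6. Starts of Gsta4, Gstt2, Ugt1a6b and Ugt3a2 had no sequence entry. Every member with a listed peak is named, and up to 6 called genes of each list by FDR, some of which are not reported here. The members and lists were chosen with earlier results of these data known, and the comparison by distance from the gene end was added after its values were seen. The alternatives tried were other thresholds, centring, peak widths, features and ways of counting.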

Additional observations from a re-analysis of the deposited data

How the results depend on the processing

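No paired analysis was possible because the table holds 1 value per peak for both genotypes and none per replicate; for the same reason no replicate could be left out. The 18 negative UGT peaks and the 20 positive GST peaks stayed within 1.5 times those counts under each alternative tried, except that with an absolute change of 1 or more the positive peaks fell to 3 in GST, 0 in UGT, 0 in SULT and 3 in all. Positive UGT peaks numbered 12 as listed, 4 with overlapping peaks or the shared Ugt1a end (an alternative added after seeing the data) counted once, and 1 by leading peak, where all families had 17. Relative to the median of all peaks (0.34), GST had 2 negative called peaks, and the medians of leading peaks were 0.19 in all, 0.41 in GST and 0.52 in SULT. Gstt1 and Sult1a1 then turn negative and the terminal peak of Gstz1 falls to 0. Peaks of at most 1000 bp left 0 called in SULT. With 3′ UTR peaks alone the medians were -0.40 in UGT, 0.48 in GST and 0.23 in SULT, and with the mean over each gene's peaks 0.26 in all. Rows with shifted cells added no member. The 5 Ugt1a intervals and the terminal shares, tried at 50 and 200 bp as well, stayed within 1.5 times. Where a value moved, the cause was not tested.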

Other observations

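Overlapping rows of 1 gene also occurred outside the Ugt1a genes. Of 17503 rows 1825 (10.4%) overlapped another row of the same gene by 1 bp or more, and 14 genes had 4 or more such rows in 1 chain. The values within a chain could differ widely, as in Rbks (0.41 to 2.35) or Fdx2 (-1.04 to 0.49) in the authors' deposited table. The longest chain, 22 rows at 0.60 to 0.62 in the authors' deposited table, was named Pcdhgc4, a gene of a protocadherin unit that is also built from separate first exons and shared last exons. The 9 rows of Ugt1a6a came next. A count of peaks by gene name counts such an interval several times.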
